A study of Mus musculus with 8 samples.

Results

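The genes of the circadian clock were followed in mouse cumulus oocyte complexes that carried or lacked a working progesterone receptor gene. The set was listed by gene symbol: core clock genes, the D-box factors that carry clock output, and clock kinases and ubiquitin ligases. It listed 28 genes, of which 27 had a probe set named for a single gene among 19938 genes measured; Npas2 was not analysed here. A gene with several probe sets was read from the one with the highest mean over all arrays. A complex is an oocyte in its coat of cumulus granulosa cells, and the complexes were punctured from antral follicles of prepubertal mice of 21 to 23 days. Every animal had received 5 IU of equine chorionic gonadotropin to grow follicles and 5 IU of human chorionic gonadotropin (hCG) 44 to 47 h later to start ovulation, and collection was 8 h after hCG.

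PRKO complexes came from mice homozygous for PRlacZ, a lacZ knock-in that stops transcription of both isoforms of the progesterone receptor gene Pgr. The controls, PR+/-, were heterozygous, so they carried the same insertion on a single allele, and wild-type complexes were not analysed here. The insertion is present in the whole animal and is not limited to cumulus cells. Each genotype had 4 whole-transcript arrays, and each array held complexes pooled from 3 animals, 12 animals per genotype. The labels do not give the clock hour of collection, so time of day was not tested. Values are log2 signals per probe set, in which a difference of 1 is a doubling.

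The clock is a loop of transcription factors. BMAL1 (gene Arntl) and CLOCK bind E-boxes and switch on the Per and Cry genes, whose proteins come back to repress them, and a side loop of ROR activators and REV-ERB repressors sets the level of Arntl. DBP, TEF and HLF activate genes through D-boxes, and NFIL3 represses through the same element. Casein kinases and F-box proteins set how long PER and CRY proteins last. Granulosa and luteal cells of the ovary are known to express clock genes, and Per1 is also a rapid response gene of cAMP and glucocorticoid signalling outside the loop.

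Of the 27 measured clock genes, Rora and Per1 fell in PRKO complexes, none rose, and 25 did not pass the test. A gene was called where limma's p-value, corrected by Benjamini-Hochberg across the 21789 probe sets named for a single gene, was under 0.05. By the same rule 2.92% of all genes were called and 1.48% were called lower, so 2 of 27 rests on a small count. Differences were below 0 for 16 of the 27 genes (59.3%), against 48.7% of all genes, and their median was -0.07, against 0.004 over all genes. Rora ranked 67th and Per1 166th among 19938 genes ordered from the lowest difference. In such bulk samples fewer cells of a type and less RNA per cell cannot be told apart.

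The promoter windows of Rora and Per1, the genes that fell, are shown because the clock and the progesterone receptor are both known to act through short elements near start sites. They run from 250 bases before to 50 bases after an annotated start, on the plus strand, from RefSeq (build GRCm38.p6). Capitals mark an E-box (CACGTG) or the core read by ROR and REV-ERB receptors (AGGTCA, or TGACCT on the other strand).
Rora, chr9:68653536-68653835: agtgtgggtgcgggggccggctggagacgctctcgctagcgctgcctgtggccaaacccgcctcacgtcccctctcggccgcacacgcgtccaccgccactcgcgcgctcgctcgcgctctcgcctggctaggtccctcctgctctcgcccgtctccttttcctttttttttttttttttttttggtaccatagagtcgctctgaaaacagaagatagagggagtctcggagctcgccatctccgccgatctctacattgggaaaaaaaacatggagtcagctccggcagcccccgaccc
Per1, chr11:69098699-69098998: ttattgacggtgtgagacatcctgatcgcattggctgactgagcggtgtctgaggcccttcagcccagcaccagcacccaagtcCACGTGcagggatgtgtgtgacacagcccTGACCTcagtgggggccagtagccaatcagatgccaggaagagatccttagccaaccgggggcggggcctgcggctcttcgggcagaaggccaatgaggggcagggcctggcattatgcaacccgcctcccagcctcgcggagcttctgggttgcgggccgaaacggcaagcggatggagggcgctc
Per1, chr11:69099902-69100201: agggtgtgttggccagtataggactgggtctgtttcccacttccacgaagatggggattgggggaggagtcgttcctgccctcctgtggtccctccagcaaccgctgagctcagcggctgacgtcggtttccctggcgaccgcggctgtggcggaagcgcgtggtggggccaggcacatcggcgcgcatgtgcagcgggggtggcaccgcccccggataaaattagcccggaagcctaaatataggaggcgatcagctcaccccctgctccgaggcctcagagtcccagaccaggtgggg

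The first Per1 window held 1 E-box, starting at -166 from the start site, and 1 receptor core, starting at -137. The Rora window and the second Per1 window held neither, nor did any of the 3 windows hold a cAMP response element (TGACGTCA), a D-box (TTATGTAA or TTACGTAA) or the core of progesterone and glucocorticoid receptor elements (AGAACA). All elements were searched on both strands, and the E-box and the core of the first Per1 window did not overlap. Windows were found for 23 of the 27 measured clock genes. An E-box stood in the windows of 5 of the 23 (Bhlhe41, Ciart, Cry1, Per1 and Tef), against 8.09% of 27025 genes with a window. AGGTCA stood in those of Arntl, Clock, Nfil3, Nr1d2 and Per1, 5 of 23 against 18.1% of all genes, and AGAACA in those of Csnk1e and Tef, 2 of 23 against 21.3%. The cAMP response element was found for Hlf, 1 of 23 against 2.03%, and a D-box for Per3 and Timeless, 2 of 23 against 1.23%. The full receptor palindrome, AGAACA and TGTTCT with 3 bases between, was found for 0 of the 23 and for 3 of all 27025 genes. Matches of letters are a description of these windows and not evidence of binding.

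**Figure D1:**
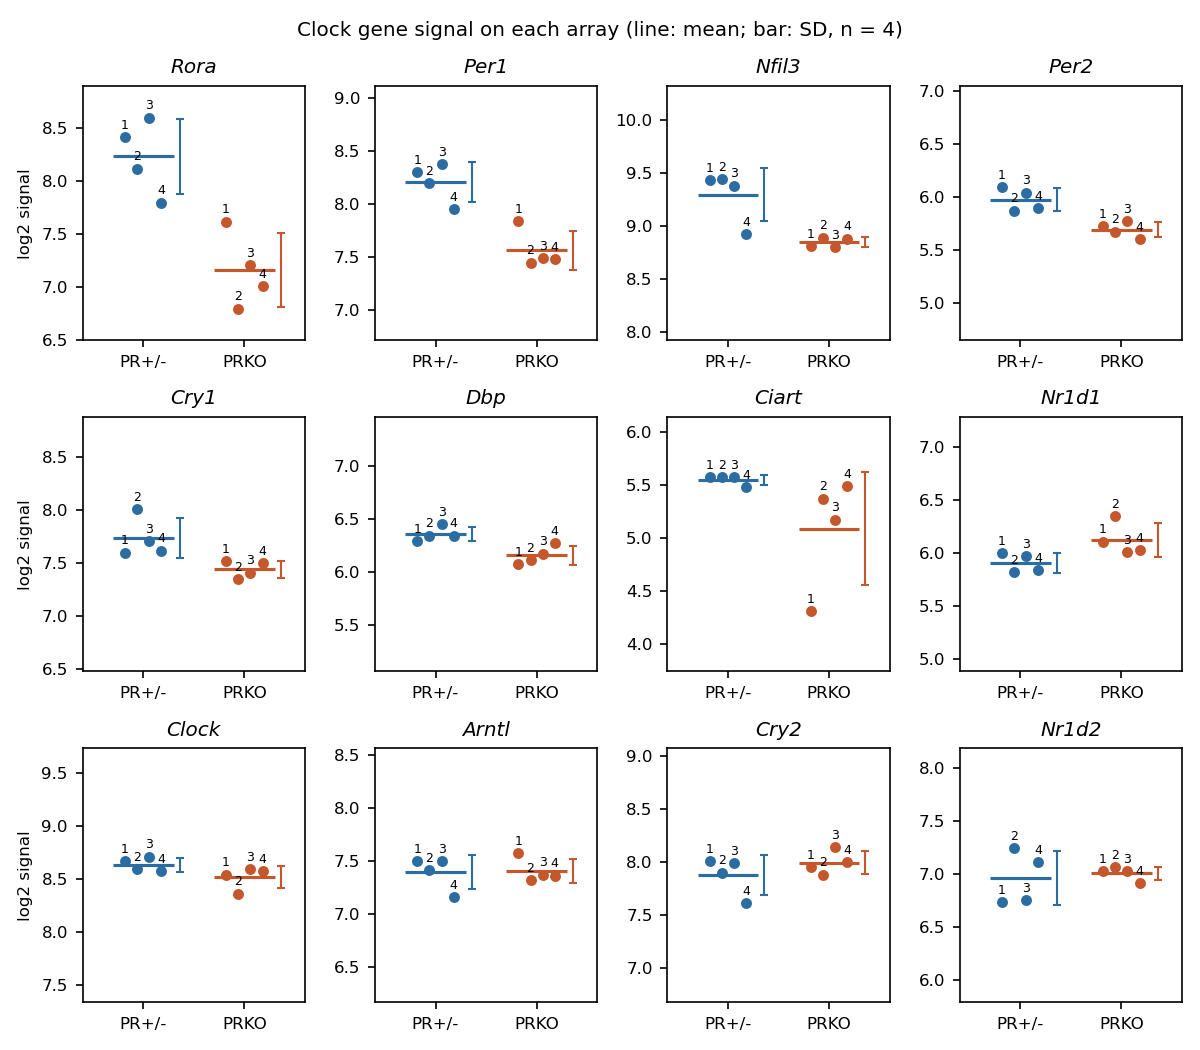
Log2 signal (vertical axis) of 12 clock genes on each PR+/- and PRKO array, with the replicate number above each point, the group mean as a line and the SD (n = 4) as a bar. All panels span the same log2 range. The genotypes stand apart for Rora, Per1, Nfil3, Per2, Cry1 and Dbp, lower in PRKO, and for Nr1d1, higher in PRKO. Of these, Rora and Per1 passed the adjusted threshold. For Ciart, Arntl, Clock, Cry2 and Nr1d2 the genotypes overlap.

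Rora encodes ROR alpha, the nuclear receptor that activates Arntl in the side loop. Its log2 signals were 8.42, 8.12, 8.60 and 7.80 on PR+/- arrays 1 to 4 and 7.62, 6.80, 7.21 and 7.01 on PRKO arrays 1 to 4. All PRKO arrays lay below all PR+/- arrays, with PR+/- replicate 4 and PRKO replicate 1 nearest to each other. The mean fell from 8.23 ± 0.35 to 7.16 ± 0.35 (SD, n = 4 each), a difference of -1.07 ± 0.19 (SE), which is 2.10-fold, with 95% limits of -1.48 and -0.66 (limma adjusted p = 0.00963). Rorb, its close relative, had 4.16 to 4.52 in PR+/- and 4.31 to 4.63 in PRKO. Those signals lay close to the arrays' lower quartiles (4.21 to 4.32), below them on 2 arrays, and the genotypes overlapped (difference 0.14, limma adjusted p = 0.556). Rora and Pgr both lie on chromosome 9, and the part of variation linked to the insertion in the Rora difference was not tested.

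The REV-ERB receptors Nr1d1 and Nr1d2 repress the elements that ROR proteins activate. Nr1d1 had 6.0, 5.82, 5.97 and 5.84 in PR+/- and 6.11, 6.35, 6.01 and 6.03 in PRKO, so that every PRKO array lay above every PR+/- array by a narrow margin. Its difference of 0.22 ± 0.09 (SE) did not pass (limma adjusted p = 0.280). Nr1d2 lay between 6.73 and 7.24 in PR+/- and between 6.91 and 7.06 in PRKO, and its 95% limits were -0.21 and 0.30. Arntl, the gene on which both receptor types converge, had 7.39 ± 0.16 in PR+/- and 7.40 ± 0.11 in PRKO (SD, n = 4). The difference of 0.01 had 95% limits of -0.20 and 0.22 and turned to -0.03 after quantile normalization of the deposited values. At the sampled hour a lower Rora signal was thus seen beside an Arntl signal that did not pass the test in either direction.

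Per1 encodes a PERIOD protein, a repressor of CLOCK and BMAL1. Its signals were 8.30, 8.20, 8.38 and 7.95 in PR+/- and 7.84, 7.45, 7.49 and 7.48 in PRKO. The highest PRKO array, replicate 1, stood apart from the other PRKO arrays and came within a narrow margin of PR+/- replicate 4, but the groups did not overlap. The mean fell from 8.21 ± 0.19 to 7.57 ± 0.18 (SD, n = 4), a difference of -0.64 ± 0.11 (SE), which is 1.56-fold, with 95% limits of -0.89 and -0.39 (limma adjusted p = 0.0109).

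Per2 had 6.09, 5.87, 6.04 and 5.89 in PR+/- and 5.72, 5.67, 5.77 and 5.60 in PRKO. The groups did not overlap, and the difference of -0.28 ± 0.08 (SE) missed the threshold (limma adjusted p = 0.103). Per3 overlapped between genotypes, at 5.03 to 5.46 against 5.10 to 5.32, with a difference of -0.09 and 95% limits of -0.32 and 0.13. The 3 Period genes thus had differences below 0, of which that of Per1 passed.

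Cry1 and Cry2 encode the cryptochromes, which join PER proteins in repression. Cry1 had 7.60, 8.01, 7.71 and 7.62 in PR+/- and 7.52, 7.35, 7.41 and 7.50 in PRKO, without overlap, and its difference of -0.29 ± 0.10 (SE) did not pass (limma adjusted p = 0.168). Cry2 had a difference of the other sign, 0.11 ± 0.10, with overlapping groups at 7.61 to 8.01 and 7.88 to 8.14. Ciart, whose protein CHRONO represses CLOCK and BMAL1, had 5.57, 5.57, 5.57 and 5.48 in PR+/- and 4.31, 5.37, 5.17 and 5.49 in PRKO. The low PRKO replicate 1 carried much of its difference of -0.46 ± 0.20 (SE, limma adjusted p = 0.286), which was -0.20 without that array. A second Ciart probe set had a difference of -0.09 ± 0.10, but the probe sets with numbers next to it belong mostly to genes of chromosome 10 (19 of 20), while Ciart lies on chromosome 3.

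Clock, the partner of BMAL1, had 8.63 ± 0.06 in PR+/- and 8.52 ± 0.10 in PRKO, with 95% limits of the difference at -0.29 and 0.06. Arntl2, a relative of Arntl, had 4.56 to 4.94 in PR+/- and 4.48 to 4.79 in PRKO. For the 3 measured activators the 95% limits reached no further than -0.29 and 0.22, and 0 of the 3 had an unadjusted p under 0.05 in limma. Among the 6 repressors Per1, Per2, Per3, Cry1, Cry2 and Ciart, 5 differences were below 0, 1 passed and 4 had an unadjusted p under 0.05, against 16% of all genes. Other repressors of the set were counted apart: Nr1d1 (0.22), Nr1d2 (0.04), Bhlhe40 (0.14) and Bhlhe41 (-0.10).

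The D-box factors all had differences below 0, and none of the 4 passed. Nfil3, the D-box repressor, came closest to the threshold. Its signals were 9.43, 9.44, 9.38 and 8.92 in PR+/- and 8.81, 8.89, 8.80 and 8.88 in PRKO. PR+/- replicate 4 lay beside the PRKO arrays, just above the highest of them, and the other 3 PR+/- arrays lay well above. The difference was -0.45 ± 0.11 (SE) with a limma adjusted p of 0.0592, and without PR+/- replicate 4 it was -0.57 with adjusted p = 0.00249. Dbp, an output activator that follows the clock with high amplitude in many tissues, had 6.29, 6.34, 6.45 and 6.34 in PR+/- and 6.07, 6.11, 6.17 and 6.27 in PRKO. Its groups were separate by a narrow margin, and the difference of -0.20 ± 0.08 (SE) did not pass (limma adjusted p = 0.232). Tef (-0.07, 95% limits -0.24 and 0.09) and Hlf (-0.13, -0.30 and 0.04), the other D-box activators, overlapped between genotypes.

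Bhlhe40 and Bhlhe41 encode DEC1 and DEC2, E-box repressors outside the PER and CRY complex. Bhlhe40 had 8.72 ± 0.11 in PR+/- and 8.86 ± 0.13 in PRKO (SD, n = 4), a difference of 0.14 that did not pass (limma adjusted p = 0.484). Bhlhe41 lay at 2.90 to 3.29 over all arrays, below the lower quartile of each, and its difference was -0.10. The kinase genes had narrow intervals. Csnk1d and Csnk1e, the casein kinases that phosphorylate PER proteins, had differences of -0.03 (95% limits -0.19 and 0.12) and 0.15 (-0.03 and 0.33). Csnk2a1, a catalytic subunit of casein kinase 2, had 0.07 (-0.09 and 0.23). Its probe set is numbered among genes of chromosome 1 (19 of 20 neighbours) although Csnk2a1 lies on chromosome 2, and a second probe set, numbered among genes of chromosome 2, gave 0.06 ± 0.07 (SE).

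Btrc and Fbxw11 encode the F-box proteins that mark phosphorylated PER for degradation, and Fbxl21 one that binds cryptochromes. Their differences were 0.08 (95% limits -0.15 and 0.32), -0.04 (-0.19 and 0.12) and -0.13 (-0.35 and 0.10), and Fbxl21 lay below the lower quartile on all 8 arrays. Nono, an RNA-binding protein that associates with PER, had 10.82 to 10.91 in PR+/- and 10.98 to 11.05 in PRKO, separate but only 0.14 apart (limma adjusted p = 0.376). Timeless, named for a fly clock gene and known in mammals chiefly for replication fork protection, had 6.17 to 6.55 and 6.29 to 6.68, a difference of 0.17 (adjusted p = 0.504).

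**Figure D2:**
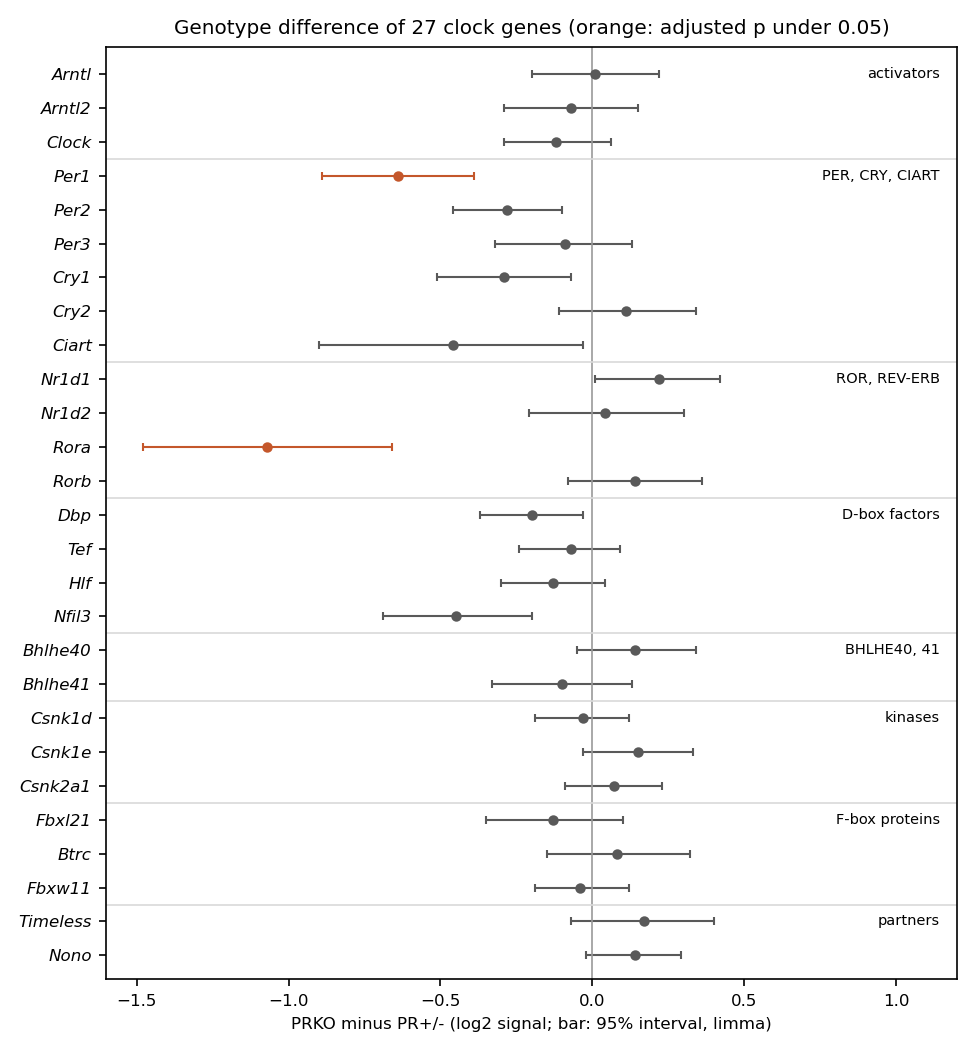
PRKO minus PR+/- difference in log2 signal (horizontal axis) of the 27 measured clock genes, grouped by role, with 95% intervals from limma that are not adjusted for the number of genes. Rora (-1.07) and Per1 (-0.64), in orange, passed the adjusted threshold, and for 19 genes the interval held 0.

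For 6 of the 27 genes (Rora, Per1, Per2, Cry1, Dbp and Nfil3) all PRKO arrays lay below all PR+/- arrays, and for 2 (Nr1d1 and Nono) all lay above. Over all genes 4.12% were separate downward and 6.08% upward. For the 19 genes whose 95% interval held 0, no limit was farther from 0 than 0.40, or 1.32-fold. That widest limit was the upper one of Timeless; the intervals of Csnk1d and Fbxw11 were narrower, each from -0.19 to 0.12.

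Rora and Per1 ranked the arrays of each genotype in the same order, which was seen after the values were known. In PR+/- both genes were highest in replicate 3, then replicates 1, 2 and 4, and in PRKO both were highest in replicate 1, then replicates 3, 4 and 2. Of the 19937 genes other than Rora, 72 (0.361%) had its order in both genotypes, and 1 of them, Per1, was a clock gene of the set. For Per1 the PRKO replicates 2 to 4 lay so close together (7.45 to 7.49) that their order carries little. With 4 arrays a genotype no correlation was computed. PR+/- replicate 4 was the lowest PR+/- array for 10 of the 27 clock genes, among them Rora, Per1 and Nfil3. Among PRKO arrays replicate 2 was the lowest for 11 and replicate 1 the highest for 10. On PR+/- replicate 4 the mean of 16 oocyte markers was 6.44 and that of 11 cumulus and granulosa markers 9.20, the highest of the 8 arrays for both lists; their part in the values of single arrays was not tested.

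**Figure D3:**
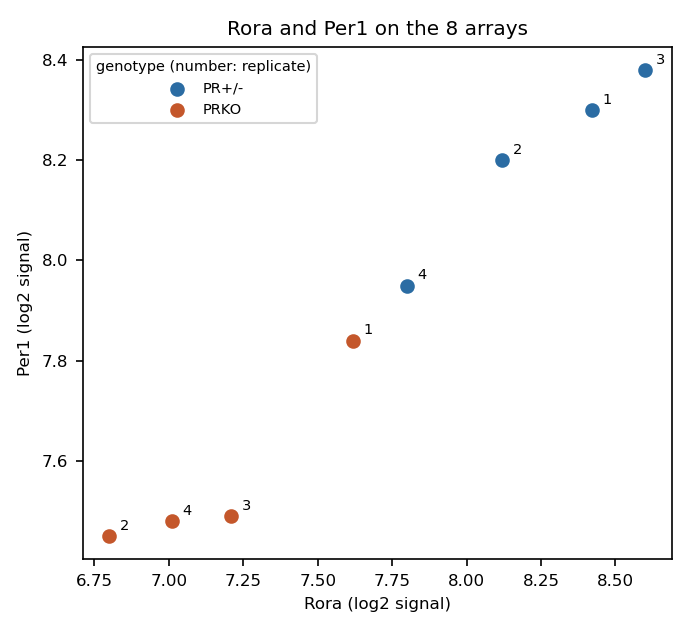
Per1 log2 signal (vertical axis) against Rora log2 signal (horizontal axis) on the 8 arrays, coloured by genotype and numbered by replicate. Within PR+/- the order from high to low is replicates 3, 1, 2 and 4 for both genes, and within PRKO it is replicates 1, 3, 4 and 2.

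Relatives within a family were compared on the same array, as the log2 difference between the 2 genes, in 13 pairs. The test was a two-sided exact permutation test over the 70 arrangements of the arrays, whose smallest possible p is 0.0286. Adjusted over the 13 pairs, at least 8 would have to reach that smallest p to pass 0.05, and 4 did, each with an adjusted p of 0.0929. They were Rora minus Rorb, 3.93 ± 0.27 in PR+/- against 2.72 ± 0.31 in PRKO (SD, n = 4, change -1.21), and Per1 minus Per3 (change -0.55), Cry1 minus Cry2 (-0.41) and Per2 minus Per3 (-0.19). For these 4 pairs the genotypes did not overlap. Since Rorb lay near the arrays' lower quartiles, its pair mainly restates the lower Rora signal. Per1 minus Per2 changed by -0.36 with overlapping groups (exact p = 0.0571, adjusted p = 0.124), so a larger drop of Per1 than of Per2 was not established. Rora and Per1 were known to be lower before the pairs were set. The other 8 pairs had changes from -0.18 for Csnk1d minus Csnk1e to 0.24 for Bhlhe40 minus Bhlhe41, whose second gene lay below the lower quartile on all 8 arrays, and adjusted p from 0.124 to 0.6 (exact permutation tests).

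**Figure D4:**
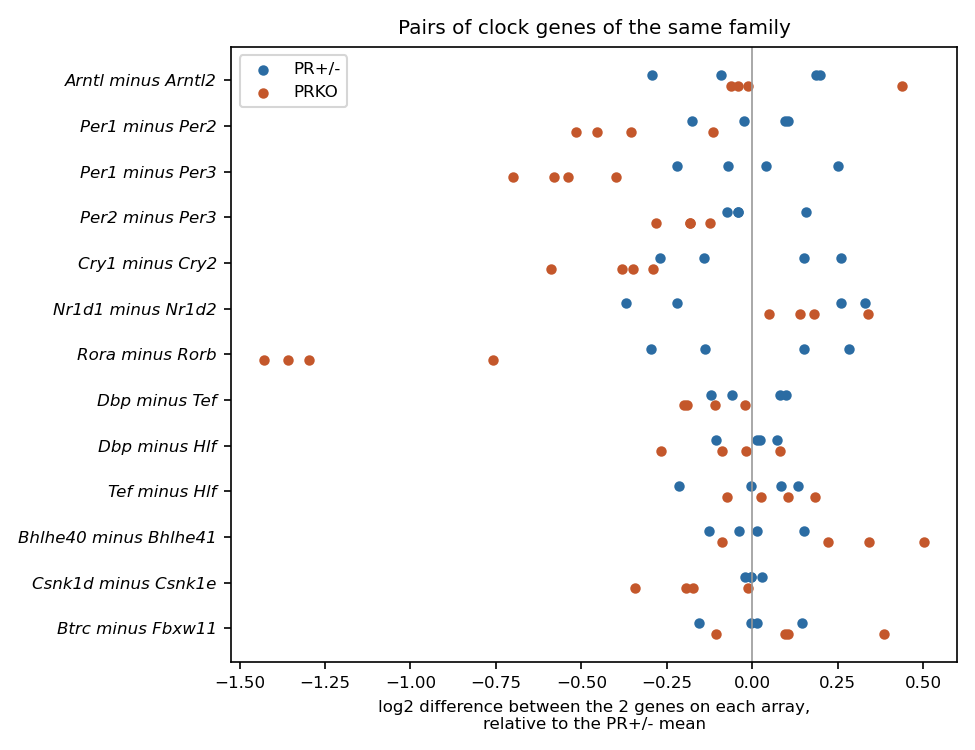
Log2 difference between the 2 genes of each family pair on every array (horizontal axis), set against the PR+/- mean of that pair, with PR+/- points above PRKO points. Rora minus Rorb shows the widest gap, with all PRKO arrays below all PR+/- arrays.

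Other genes of the pathway were taken from 2 lists, which were drawn up with earlier results of these data known. Of 28 measured regulators of the clock proteins (kinases, phosphatases, ubiquitin enzymes, corepressors and chromatin factors), 0 passed in limma and 5 had an unadjusted p under 0.05 (4 lower and 1 higher), a share near the 16% of all genes. Their median difference was -0.04. The 3 largest were Prkca, protein kinase C alpha (0.43 ± 0.15, SE, limma adjusted p = 0.176), Ep300, an acetyltransferase that coactivates CLOCK and BMAL1 (-0.34 ± 0.15, 0.307), and Usp2, a deubiquitinase with a clock-driven transcript (-0.31 ± 0.08, 0.0581). Usp2 had 5.91, 6.04, 5.85 and 5.88 in PR+/- and 5.59, 5.56, 5.58 and 5.70 in PRKO, without overlap, and it passed with array weights (limma adjusted p = 0.0470) and among brighter probe sets (0.0325).

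Of 25 measured genes known as clock-controlled in one tissue or another, 3 fell, 0 rose and 22 did not pass, beside 2.92% of all genes called and 1.48% called lower. An unadjusted limma p under 0.05 was found for 10 of the 25 (7 lower and 3 higher), against 16% of all genes, and the median difference was -0.02. The lower genes were Tsc22d3, Klf9 and Klf15. Tsc22d3 encodes GILZ, a leucine zipper protein, and Klf9 and Klf15 encode Kruppel-like transcription factors; all 3 are also known as genes that glucocorticoids induce. Tsc22d3 had 8.35, 8.21, 8.18 and 7.24 in PR+/- and 6.09, 6.11, 6.46 and 6.29 in PRKO. It fell by 1.76 ± 0.20 (log2, SE), which is 3.38-fold (limma adjusted p = 0.000633), and PR+/- replicate 4 was again the PR+/- array nearest to PRKO. Klf9 had 8.64, 8.14, 8.39 and 7.81 against 7.28, 7.36, 7.27 and 7.63, and Klf15 had 6.41, 6.26, 6.26 and 6.16 against 5.46, 5.62, 5.63 and 5.78. They fell by 0.86 ± 0.15 and by 0.65 ± 0.09 (log2, SE), with limma adjusted p of 0.0113 and 0.00221. For these 3 genes no PRKO array reached the lowest PR+/- array.

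The largest of the other clock-controlled genes were Alas1, the first enzyme of haem synthesis (0.53 ± 0.16, SE, limma adjusted p = 0.123, or 0.0222 with the oocyte markers as a covariate), Pdk4, a kinase that inhibits pyruvate dehydrogenase (-0.43 ± 0.14, 0.133), and Wee1, a mitotic inhibitor kinase with E-boxes known to respond to CLOCK and BMAL1 (-0.35 ± 0.10, 0.0917). Usp2 was on this list too.

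**Figure D5:**
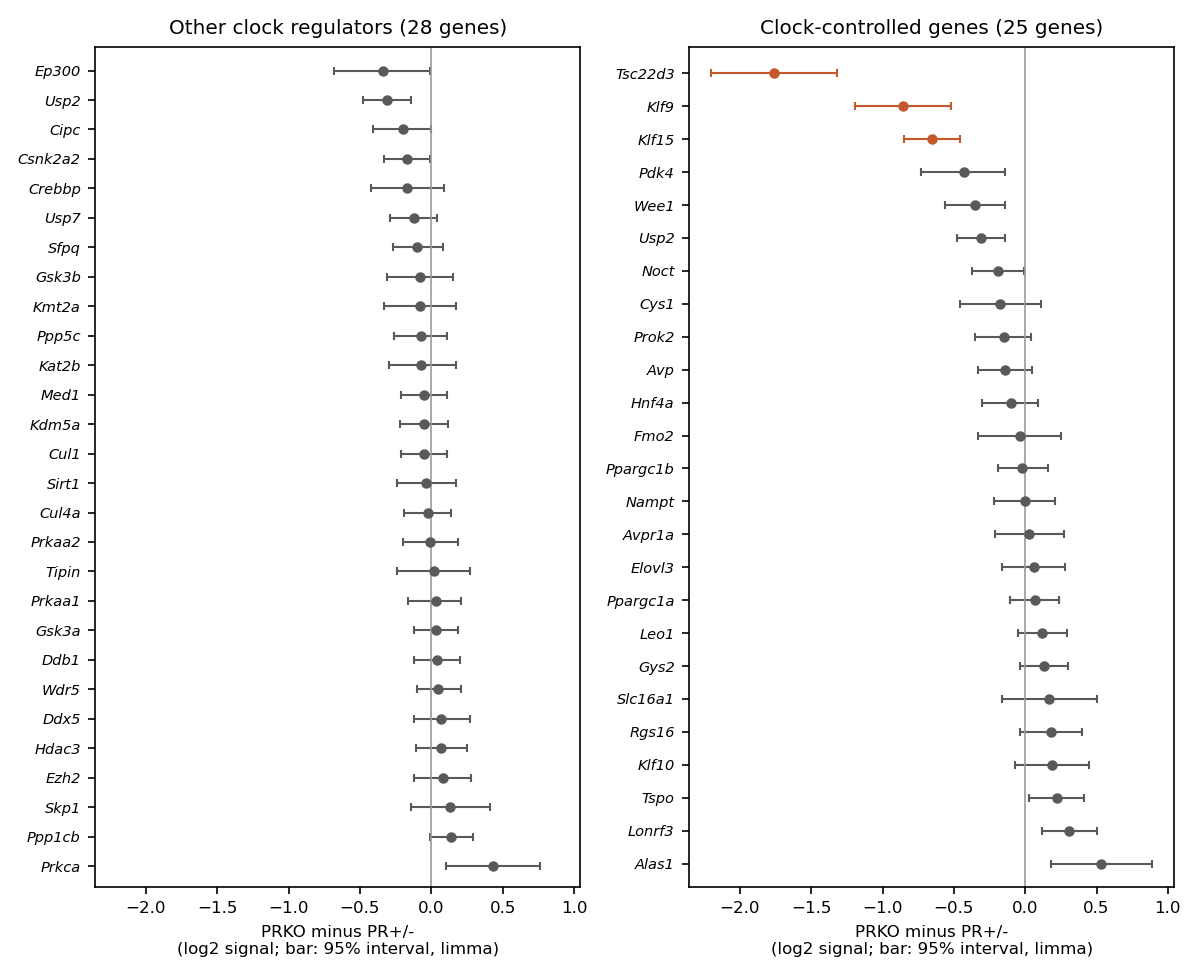
PRKO minus PR+/- difference in log2 signal (horizontal axis) of 28 further clock regulators on the left and 25 clock-controlled genes on the right, with 95% intervals from limma, not adjusted for the number of genes. Tsc22d3 (-1.76), Klf9 (-0.86) and Klf15 (-0.65), in orange, passed the adjusted threshold; Usp2 appears on both sides.

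The genotype labels and cell content were checked on the same arrays. Pgr fell from 6.78 ± 0.57 to 5.69 ± 0.40 (SD, n = 4), with a limma adjusted p of 0.0452 and an exact permutation p of 0.0571, since PRKO replicate 4 (6.17) overlapped with PR+/- replicate 1 (6.09). Whether the probe set covers the disrupted stretch of Pgr was not tested. Cumulus and oocyte markers were present in both genotypes, for example Inha, an inhibin subunit (12.36 and 12.52), Tnfaip6, a hyaluronan-binding protein (10.96 and 11.12), Padi6 (7.88 and 7.77) and Bmp15 (7.26 and 7.45). Of 11 cumulus and granulosa markers Fshr, the follicle-stimulating hormone receptor, fell by 1.06 ± 0.15 (log2, SE, limma adjusted p = 0.00221). Of these 11, 3 had an unadjusted limma p under 0.05, all lower, against 16% of all genes in either direction. Their median difference was -0.27, with 6 below 0 and 5 above, and Inha and Tnfaip6 stood at the upper end (0.16 each). Of 8 endothelial markers Kdr rose from 5.74 ± 0.16 to 6.54 ± 0.33 (SD, n = 4), by 0.80 ± 0.15 (SE, limma adjusted p = 0.0126). The mean of the 8, Kdr included, was 4.97 to 5.01 in PR+/- and 5.03 to 5.17 in PRKO. Among these markers 4 differences were below 0 and 4 above, with a median of 0.01. Only Kdr had an unadjusted limma p under 0.05. Of 13 theca and stroma markers 0 passed in limma, 5 had an unadjusted p under 0.05 (all higher, against 16% of all genes in either direction), and their mean was 5.45 to 5.76 in PR+/- and 5.57 to 6.08 in PRKO. Of 16 oocyte and 8 immune markers 0 passed in limma, with 2 and 0 at an unadjusted p under 0.05, and 5 immune markers lay below the lower quartile on all arrays. Oocyte marker differences were below 0 for 14 and above for 2 (median -0.10), with Bmp15 the highest (0.19). Of erythrocyte markers 2 were measured and 0 passed, with 0 at an unadjusted p under 0.05. Beside Kdr, the brightest markers of these cells, in PR+/- and PRKO, were Acta2 (7.02 and 7.49) and Col1a1 (6.79 and 6.90) of stroma, Cdh5 of endothelium (5.88 and 5.59), Cd68 (5.63 and 5.85) and Cd3e (5.37 and 5.38) of immune cells, and Slc4a1 (5.29 and 5.41) and Alas2 (5.11 and 5.21) of erythrocytes. The part of the cumulus and granulosa, endothelial, immune and erythrocyte markers in the lower Rora and Per1 signals was not tested.

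With the theca and stroma mean as a covariate, the differences were -1.28 for Rora (limma adjusted p = 0.0137) and -0.75 for Per1 (0.0212), and with the oocyte mean they were -1.12 (0.00442) and -0.67 (0.00633). Klf9 did not pass with the theca and stroma covariate (-0.85, limma adjusted p = 0.0613), while Tsc22d3 and Klf15 did. Rora and Per1 passed without any 1 of the 8 arrays (limma adjusted p up to 0.0367 and 0.0444). They did not pass when limma's linear model was used without moderation (adjusted p = 0.149 and 0.122) or when p-values were adjusted over all 35556 probe sets, named or not (0.0633 and 0.0584).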

How the data were processed

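The authors deposited log2 signals, a value for each probe set on every array, made from biotin-labelled cRNA (Affymetrix whole-transcript kit, per the labels' protocols). Partek is named without a version, per the submitters' processing notes, and what it did is not stated there. Log base 2 follows from the range (1.19 to 14.08): as natural logarithms the highest would exceed the 65535 of a 16-bit scanner. Scan dates and batches were not used here.

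Of 35556 probe sets, 21789 with 1 gene symbol were tested without a filter, and 1621 with several and 12146 with none were left out. Of their Entrez identifiers 21698 matched RefSeq (GRCm38.p6), through which list names were updated. PRKO minus PR+/- was fitted over all 21789 with limma 3.58.1 under R 4.3.3, with empirical Bayes moderation (6.04 prior degrees of freedom) and two-sided p-values. The fit was also run on simulated data of 19938 genes, 1 probe set each. Those data had the means and moderated variances of the real fit and independent noise. There the fit called 91% of genes changed 1.5-fold, and 9 of its 203 calls were unchanged genes. Moderated variances differ less between genes than the genes' own, so these rates can be better than those in the real data. The number of arrays limits precision, and p-values measure the spread between pools.

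Members, lists, pairs and tests were chosen with earlier results of these data known. Named were all members, called genes and the 3 largest others of both pathway lists, and the 2 brightest and any called of each marker list. Alternatives: replicate block, quantile normalization, centring, a signal filter, array weights, trend and robust moderation, an unmoderated fit, omission of each array, all probe sets, probe set means, an adjusted p under 0.1 and 2 marker covariates. The replicate numbers were not taken as pairs: correlations of same-numbered deviations were 0.08 to 0.153, and PR+/- replicate 2 correlated more with PRKO replicate 4 (0.216). Python 3.11.15, pandas 2.3.3, numpy 2.4.6, scipy 1.17.1 and matplotlib 3.10.9 made tables and plots.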

Additional observations from a re-analysis of the deposited data

Results flagged for a closer look

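In 5 of 74 groups of 4 arrays, over the clock genes, Pgr and the named genes of both pathway lists, 1 array lay far from the other 3 by Dixon's criterion, which chance meets in about 1 in 20 groups. PR+/- replicate 4 was the low array for Nfil3 (8.92, others 9.38 to 9.44), Tsc22d3 (7.24, others 8.18 to 8.35) and Ciart (5.48, others at 5.57, a gap that is small in log2 units). PRKO replicate 1 was the high array for Per1 (7.84, others 7.45 to 7.49). Without it the Per1 difference was -0.73 with a limma adjusted p of 0.00504. PRKO replicate 2 was the high array for Bhlhe41 (3.29, others 2.90 to 2.93), below the lower quartile of signal.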

How the results depend on the processing

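The calls of Rora and Per1 held in 17 of 19 alternatives, with differences of -1.28 to -0.95 and -0.75 to -0.59. Both, and so all clock gene calls (0), were lost without moderation and when all probe sets were tested; genes called then numbered 106 and 206, against 582. Of the 3 called clock-controlled genes, 1 (Klf15) was called without moderation and 2 with all probe sets, where Klf9 was lost (limma adjusted p = 0.0662). The theca and stroma covariate left 293 genes. An adjusted p under 0.1 gave 932 genes, 3 clock genes and 6 clock-controlled genes. Of the other regulators 1 (Usp2) passed with the signal filter, with array weights and at that looser threshold. Nfil3 passed in 5 of 19. Quantile normalization gave 303 lower and 173 higher genes, against 296 and 286.

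Leaving out 1 array gave 301 to 532 genes: without PR+/- replicate 1, 2 or 3 there were 384, 363 or 306, and without PRKO replicate 2, 3 or 4 there were 337, 301 or 383; these fits have fewer samples. The Pgr difference ranged from -1.32 to -0.90 and its call was lost in 6 of those 8, and also with trend and robust moderation (-1.09, limma adjusted p = 0.0753), no moderation (-1.09, 0.247), all probe sets (-1.09, 0.143) and the theca and stroma covariate (-1.28, 0.0708). Differences near 0 changed sign. That of Arntl was -0.03 with quantile normalization, -0.01 with array weights and with the oocyte covariate, -0.04 with the theca and stroma covariate, and -0.07 to 0.05 with 1 array left out. With 1 array left out Nr1d2 ranged from -0.03 to 0.14, Btrc from -0.0045 to 0.17, Tef minus Hlf from -0.01 to 0.11 and Arntl minus Arntl2 from -0.04 to 0.14. The cause of these shifts was not tested.

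The labels give same-numbered arrays no shared source, and their correlations were low (0.08 to 0.153). All of these were positive, while those of differently numbered arrays ran from -0.211 to 0.216, and a shared replicate effect was not excluded. With the replicate block the same 2 clock genes passed (Rora limma adjusted p = 0.0011, Per1 0.00602), and 671 genes in all. Alas1 passed with it (0.53, limma adjusted p = 0.0178) and with the oocyte covariate (0.61, 0.0222), which made 4 clock-controlled calls, 1 of them higher. Not every array correlated best with its own number. With 4 arrays a genotype, differences of low-signal genes such as Bhlhe41, Fbxl21 and Rorb are the least certain.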
